A study of Mus musculus with 5 samples.

Results

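This is an account of 9 liver genes that set the balance between glucose production and glucose breakdown, followed across 5 RNA-seq libraries of mouse liver. The genes are G6pc1, Slc37a4, Pck1, Fbp1, Gckr, Pklr, Slc2a2, Ppargc1a and Foxo1, and each matched 1 row by its symbol among the 33589 rows of the deposited table. They were chosen by function, as the glucose-6-phosphatase system, gluconeogenic enzymes, glycolytic genes and their regulators, but with knockout and control values of these same libraries already known. Their differences between genotypes are therefore given as a description with no test. All 9 had a mean of at least 1 FPKM (a level in fragments, divided by transcript length and by the size of the library), the limit for the comparison across all genes, which 10820 rows passed.

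Both groups were male mice of 6 weeks carrying the floxed allele that the labels write as Hegfl/fl, and both ate a high-fat diet over 4 weeks. The 2 control libraries carried no Cre, and the 3 knockout libraries (Lyve1-Cre;Hegfl/fl) also carried a Cre recombinase driven by Lyve1, a gene of lymphatic and liver sinusoidal endothelium. Effects of the Cre itself and of the deletion cannot be told apart, since no library had Cre without the floxed allele. The series title speaks of hepatocytes and the labels of liver. Feeding state and time of day at collection are not given in the sources used here, nor whether each library came from a separate animal, so the spread between libraries may in part be technical.

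The liver is the main organ that releases glucose into blood. In gluconeogenesis, pyruvate carboxylase and phosphoenolpyruvate carboxykinase (PEPCK, Pck1) turn pyruvate into phosphoenolpyruvate, fructose-1,6-bisphosphatase (Fbp1) reverses the phosphofructokinase step, and glucose-6-phosphatase frees glucose in the endoplasmic reticulum. Liver pyruvate kinase (Pklr) drives the opposite flow, and Gckr encodes a regulatory protein of the glycolysis of liver. Insulin acts on the balance through the transcription factor FOXO1, glucagon through cAMP, CREB and the coactivator PGC-1α (Ppargc1a), and glucose itself through the factor ChREBP.

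Promoter windows from RefSeq (build GRCm38.p6, the assembly also called mm10) reach from 250 bases before to 50 bases after a gene's start, and the 9 genes had 12 such windows. The windows of G6pc1, Pck1 and Pklr are shown because these were the 3 genes whose FPKM did not overlap between the groups. They lie at chr11:101367466-101367765, chr2:173152823-173153122 and chr3:89136373-89136672, all on the plus strand. Pklr has a second window upstream, at chr3:89135892-89136191, where the transcript of red blood cells starts. Capitals mark the motif matches described next.
G6pc1: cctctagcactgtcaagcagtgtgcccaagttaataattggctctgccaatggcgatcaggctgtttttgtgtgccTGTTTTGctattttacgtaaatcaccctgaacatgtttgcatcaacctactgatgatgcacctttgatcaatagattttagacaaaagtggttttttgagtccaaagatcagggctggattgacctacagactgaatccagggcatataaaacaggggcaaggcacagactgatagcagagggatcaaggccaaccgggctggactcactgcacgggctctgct
Pck1: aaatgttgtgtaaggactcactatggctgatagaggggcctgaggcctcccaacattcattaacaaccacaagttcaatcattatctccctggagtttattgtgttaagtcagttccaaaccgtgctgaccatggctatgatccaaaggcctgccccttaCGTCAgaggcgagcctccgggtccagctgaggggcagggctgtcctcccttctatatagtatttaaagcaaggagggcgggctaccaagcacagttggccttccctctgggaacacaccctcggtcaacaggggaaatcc
Pklr: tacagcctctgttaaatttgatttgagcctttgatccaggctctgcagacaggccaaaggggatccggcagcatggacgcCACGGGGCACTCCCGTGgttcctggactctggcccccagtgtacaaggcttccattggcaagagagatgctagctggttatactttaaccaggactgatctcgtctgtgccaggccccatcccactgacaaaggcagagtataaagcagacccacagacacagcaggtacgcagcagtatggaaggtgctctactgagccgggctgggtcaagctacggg

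Each motif was searched on both strands, all but the last by exact letters. Distances are counted from the RefSeq start of each window. GENCODE, used for the gene positions below, starts G6pc1 at 101367561, inside the printed window and upstream of its RefSeq start. The insulin response sequence CAAAACA was found in the G6pc1 window, as its reverse complement 174 to 168 bases before the start, and also in the Gckr window, and 6.28% of the 32851 windows of all genes hold it. The CRE core TGACG, part of the element that CREB binds, was found in the Pck1 window 90 to 86 bases before the start and in windows of Slc37a4 and Ppargc1a, against 20.8% of all windows. The FOXO motif TGTTTAC (3.65% of all windows) and the E box CACGTG (7.15%) were in none of the 12 windows. The consensus of the carbohydrate response element that ChREBP binds, a pattern with some letters open, was added after the Pklr window had been seen. It matched there 170 to 154 bases before the start, and in 39 of all windows (0.119%). Each printed window held 1 match of these 5 motifs, and a match describes letters, not binding.

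G6pc1 makes the liver form of the enzyme subunit that splits glucose-6-phosphate. Its gene lies on chromosome 11 at 101367561 to 101377903 (plus strand, mm10, ENSMUSG00000078650.2, annotated as G6pc), is protein coding and has 1 annotated transcript. Its level was 167 and 245 FPKM in the control libraries and 89.0, 54.1 and 33.9 FPKM in knockouts 1, 2 and 3. Every knockout lay below both controls, and the highest value of the 5 was 7.21 times the lowest. The mean was 206 ± 55.2 FPKM in controls (SD, n = 2) and 59.0 ± 27.9 FPKM in knockouts (SD, n = 3), which puts the knockout mean at 28.7% of the control mean. On the scale of log2(FPKM + 1) the difference, knockout minus control, was -1.86 (SE 0.38), the largest of the 9 genes in absolute size.

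Slc37a4 encodes the transporter that carries glucose-6-phosphate to the catalytic subunit inside the endoplasmic reticulum (chromosome 9, 44396852 to 44402968, plus strand). It had 189 and 162 FPKM in controls, against 163, 144 and 144 FPKM in knockouts. Knockout 1 lay just above control 2, so the groups overlapped, and the log2 difference was -0.22 (SE 0.11), or -0.11 without control 1 and -0.33 without control 2. The RNA of the catalytic subunit and that of its transporter thus stood in a different proportion in each library. The ratio of G6pc1 to Slc37a4 FPKM was 0.880 and 1.51 in controls and 0.547, 0.374 and 0.235 in knockouts. G6pc3, the ubiquitous catalytic subunit, was far less abundant, with 5.17 and 4.22 FPKM in controls, against 5.84, 3.74 and 5.56 FPKM in knockouts. The ratio of G6pc1 to G6pc3 was 32.2 and 58.0 in controls and 15.2, 14.5 and 6.10 in knockouts.

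**Figure D1:**
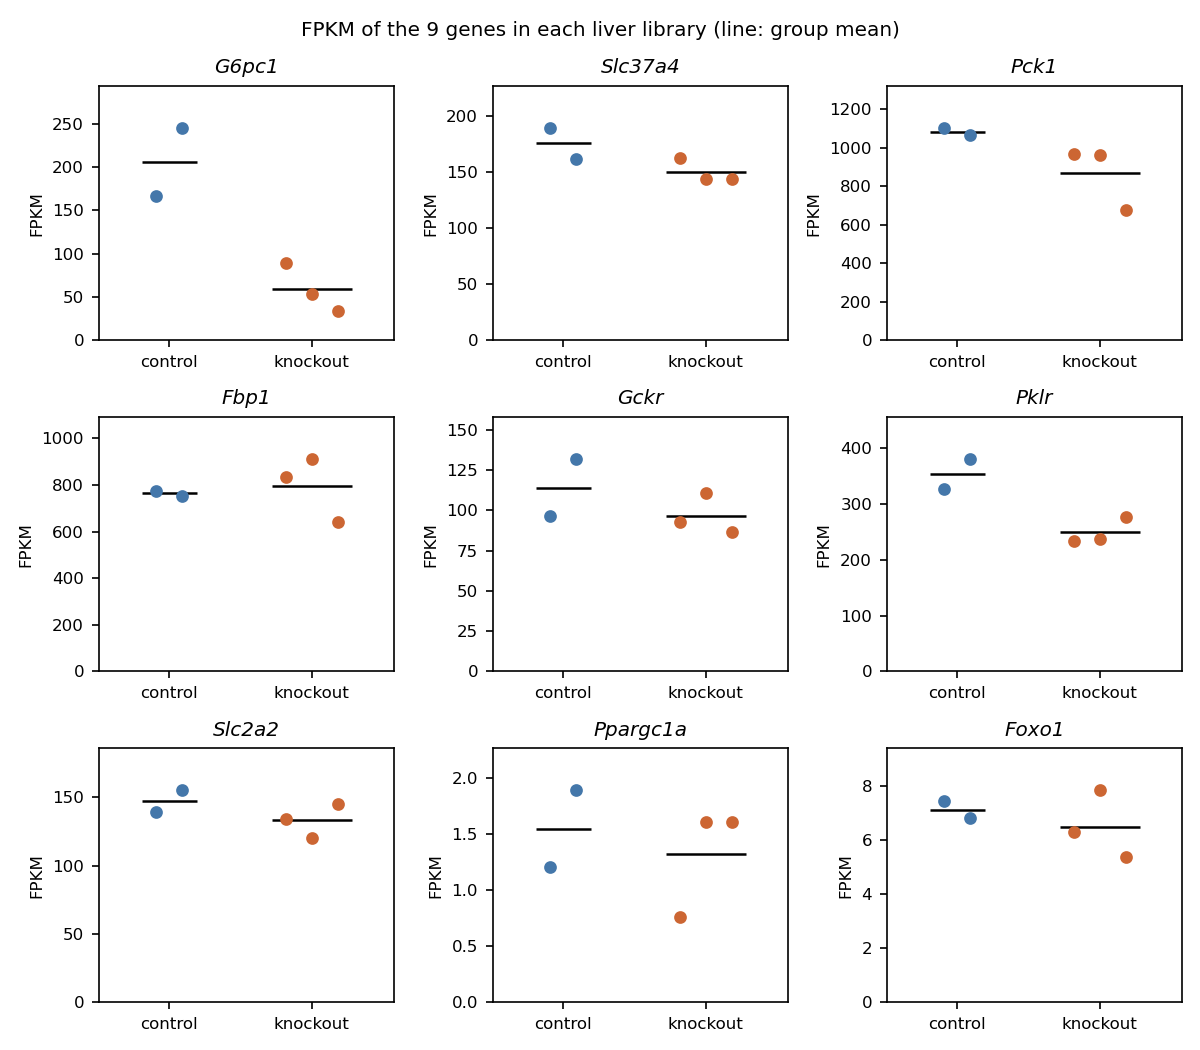
FPKM (vertical axes, each from 0) of the 9 genes, with 1 point per library, controls in blue, knockouts in orange and a line at each group mean. G6pc1, Pck1 and Pklr have every knockout below both controls, and the other 6 genes overlap between the groups.

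Pck1, the cytosolic PEPCK that commits carbon to gluconeogenesis, was the most abundant of the 9 genes in all 5 libraries (chromosome 2, 173153048 to 173159273, plus strand). It had 1100.0 and 1066 FPKM in controls, against 965, 962 and 679 FPKM in knockouts. The groups did not overlap, but knockouts 1 and 2 lay close to the controls and knockout 3 well below. The means were 1083 ± 23.8 FPKM (SD, n = 2) and 869 ± 164 FPKM (SD, n = 3), with a log2 difference of -0.34 (SE 0.17). Without knockout 3 that difference was -0.17. Pck2, the mitochondrial form of the enzyme, had between 1.16 and 1.88 FPKM over the 5 libraries. The ratio of Pck1 to Pck2 was 859 and 756 in controls and 832, 512 and 412 in knockouts.

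Fbp1 was second in abundance in all 5 libraries (chromosome 13, 62864753 to 62888282, minus strand). It had 775 and 754 FPKM in controls, against 836, 910 and 641 FPKM in knockouts. The knockouts lay on both sides of the controls, 2 above and 1 below, and the log2 difference was 0.04 (SE 0.16). Fbp1 was the only one of the 9 genes with a higher mean in knockouts, and its sign turned without knockout 2 (-0.06). The ratio of Pck1 to Fbp1 within a library was 1.42 in each control and 1.15, 1.06 and 1.06 in knockouts. Pyruvate carboxylase (Pcx), the entry enzyme, had 151 and 159 FPKM in controls, against 147, 206 and 150 FPKM in knockouts, a log2 difference of 0.10 (SE 0.16). Thus the level of G6pc1 differed between the groups by a larger factor than the levels of the other gluconeogenic enzymes, a difference in size that was not itself tested.

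Pklr encodes the pyruvate kinase of liver, the last step of glycolysis (chromosome 3, 89136142 to 89146784, plus strand, 5 annotated transcripts). It had 326 and 379 FPKM in controls, against 233, 237 and 277 FPKM in knockouts. All knockouts lay below both controls. The mean was 353 ± 37.8 FPKM (SD, n = 2) in controls and 249 ± 24.2 FPKM (SD, n = 3) in knockouts, 70.5% of the control mean, with a log2 difference of -0.50 (SE 0.12). Its spread within knockouts was small (coefficient of variation 9.74%) beside that of G6pc1 (47.2%), and its lowest library was knockout 1, whereas knockout 3 was lowest for G6pc1.

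The Pklr gene overlaps Hcn3, an ion channel gene on the opposite strand, by 711 exonic bases. Hcn3 had 11.3 and 13.2 FPKM in controls, against 5.16, 5.56 and 7.50 FPKM in knockouts. Its order over the libraries was that of Pklr. The sources used here do not say if reads were counted by strand, and reads from the shared stretch cannot be assigned to either gene with certainty. Hcn3 reached only a small part of the level of Pklr. Foxo1 shares 674 exonic bases with an antisense transcript, Gm20402, which is not analysed here, and the other 7 genes share no exonic bases with another annotated gene.

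Gckr encodes a regulatory protein of glycolysis in liver (chromosome 5, 31297443 to 31327314, plus strand). It had 96.6 and 132 FPKM in controls, against 92.5, 111 and 86.5 FPKM in knockouts, and knockout 2 lay between the controls. Its log2 difference was -0.23 (SE 0.17), or -0.0075 without control 2 and -0.45 without control 1.

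Within a library the ratio of G6pc1 to Pklr was 0.511 and 0.645 in controls and 0.383, 0.228 and 0.123 in knockouts, without overlap. G6pc1 and Pklr, a gene of glucose release and one of glucose use, were thus both lower in knockouts, G6pc1 by the larger factor. The ratio of Pck1 to Pklr was 3.37 and 2.81 in controls and 4.15, 4.06 and 2.46 in knockouts, with knockouts on both sides of the controls.

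Slc2a2 encodes GLUT2, the glucose transporter of the hepatocyte membrane that lets glucose pass in both directions (chromosome 3, 28697903 to 28731359, plus strand). It had 139 and 155 FPKM in controls, against 134, 120 and 145 FPKM in knockouts. Knockout 3 lay between the controls and the other 2 below them. The log2 difference was -0.14 (SE 0.11), from 147 ± 11.4 (SD, n = 2) to 133 ± 12.3 FPKM (SD, n = 3). Without control 2 it was -0.064, and without control 1 -0.22. Slc2a2 varied least of the 9 genes, its highest library being 1.29 times its lowest.

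Both regulators of the set overlapped between the groups. Foxo1 (chromosome 3, 52268336 to 52353221, plus strand) had 7.43 and 6.80 FPKM in controls, against 6.28, 7.83 and 5.37 FPKM in knockouts, a log2 difference of -0.13 (SE 0.16). Without knockout 3 it was -0.016, and without knockout 2 -0.25. Ppargc1a (chromosome 5, 51454250 to 51567726, minus strand) had 1.21 and 1.89 FPKM in controls, against 0.76, 1.61 and 1.61 FPKM in knockouts. Its log2 difference was -0.14 (SE 0.23), or 0.05 without control 2 and -0.34 without control 1. Ppargc1a was the least abundant of the 9 genes in every library, close to the limit of 1 FPKM. RNA levels say nothing of the phosphorylation and nuclear entry through which FOXO1 is mainly controlled.

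**Figure D2:**
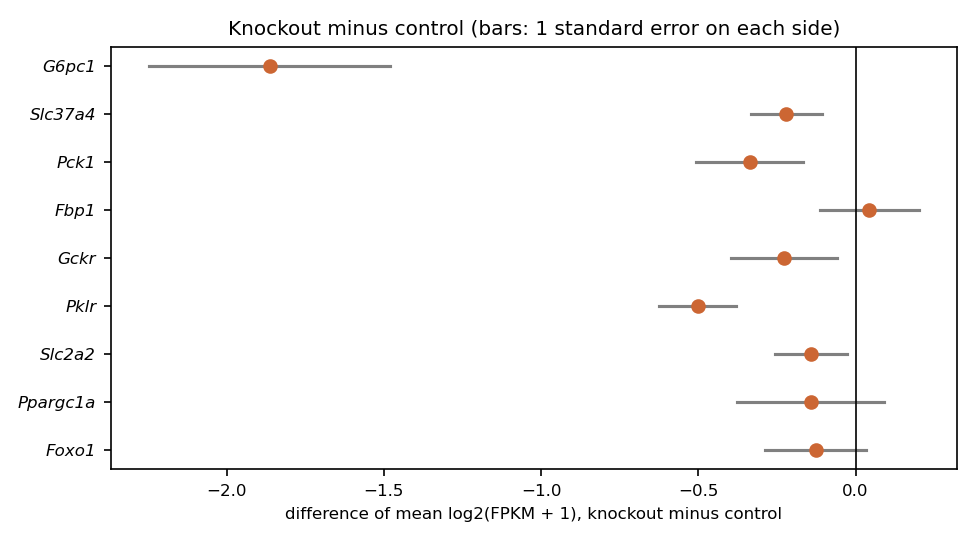
Difference of mean log2(FPKM + 1), knockout minus control (horizontal axis), for the 9 genes, with bars of 1 standard error on each side. G6pc1 lies at -1.86 and Pklr at -0.50, and the other 7 lie between -0.34 and 0.04.

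Counted together, 8 of the 9 genes had a lower mean in knockouts, with a median log2 difference of -0.22 beside 0.06 over all genes tested. In 3 of the 9 every knockout lay below both controls, and in 0 of the 9 above both. Over all genes tested 6.38% were lower in this way and 18.9% higher. After median-of-ratios scaling these shares were 12.1% and 11.9%, and the 3 genes were joined by Slc37a4 and Slc2a2. Across the 10820 genes, limma with Benjamini-Hochberg adjustment called 0% higher and 0% lower (smallest adjusted p = 0.587). Before adjustment 572 genes were higher and 185 lower with p under 0.05, a split of 310 and 362 after median-of-ratios scaling. No gene named here therefore passed the test across all genes.

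**Figure D3:**
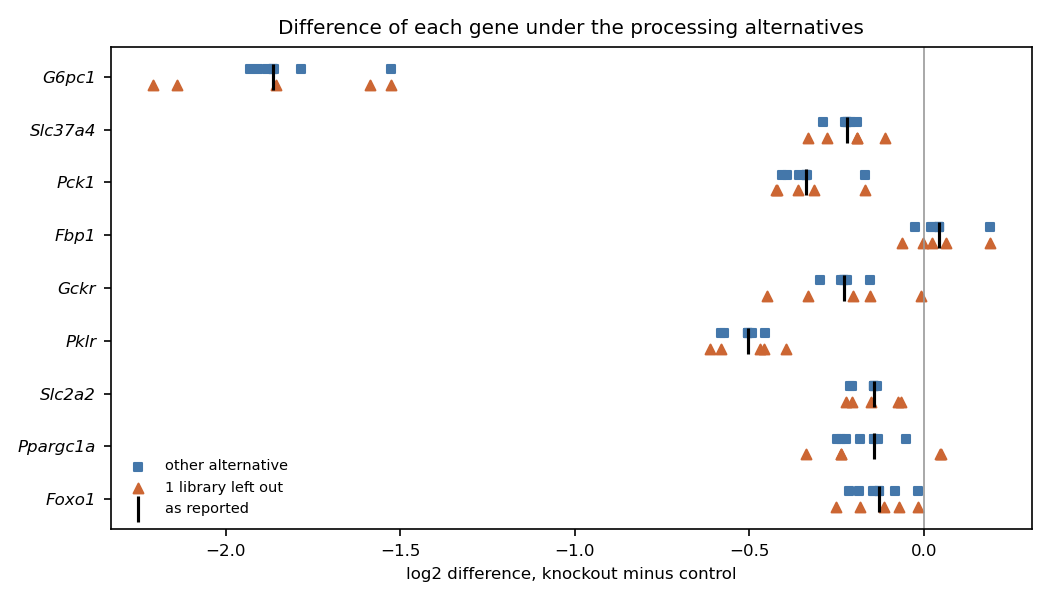
Log2 difference, knockout minus control (horizontal axis), of each of the 9 genes as reported (black bar), with 1 library left out (orange triangles) and under the other processing alternatives (blue squares). G6pc1 lies between -2.21 and -1.53 and Pklr between -0.61 and -0.39, whereas Fbp1 and Ppargc1a fall on both sides of 0.

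The level order of the 9 genes was stable in its outer parts. Pck1, Fbp1 and Pklr took the first 3 places and Foxo1 and Ppargc1a last in every library. The middle places changed with genotype. G6pc1 stood at position 5 in control 1 and at position 4 in control 2, above Slc2a2 and Gckr, and at position 7 in each knockout, below both. Slc37a4, Slc2a2 and Gckr differed by at most 1.52 times between their highest and lowest library, and the neighbours Slc37a4 and Slc2a2 exchanged places in knockout 3. The sum of the 9 genes was 2800 and 2901 FPKM in controls, against 2519, 2548 and 2013 FPKM in knockouts, most of it from Pck1 and Fbp1.

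Genes with an official symbol, provisional names left out, were ranked by the nearness of their profile over the 5 libraries to that of G6pc1. The 5 nearest were Arl4d, Tsc22d3, Depp1, Ppp1r3b and Trp53inp1. Nearness was the root mean square difference of log2(FPKM + 1), centred on the mean of the 2 group means. It thus weighs the size of a change as well as its shape. Arl4d, a small GTPase of the ARF family, was nearest at 0.28, with 48.1 and 47.8 FPKM in controls, against 30.0, 17.0 and 9.36 FPKM in knockouts. Tsc22d3, which encodes the glucocorticoid-induced leucine zipper protein, followed at 0.35, with 97.3 and 121 FPKM in controls, against 74.3, 45.1 and 31.0 FPKM in knockouts. In both genes, as in G6pc1, knockout 1 was nearest to the controls and knockout 3 farthest.

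Depp1, an autophagy regulator, lay at 0.48, with 85.7 and 55.7 FPKM in controls, against 52.7, 26.9 and 13.4 FPKM in knockouts. Ppp1r3b, which targets protein phosphatase 1 to glycogen, lay at 0.49, with 79.5 and 77.9 FPKM in controls, against 54.1, 36.7 and 28.5 FPKM in knockouts. Trp53inp1, a stress-induced nuclear protein, lay at 0.56, with 12.5 and 13.8 FPKM in controls, against 9.65, 7.08 and 4.86 FPKM in knockouts. Among the 9 genes themselves the nearest to G6pc1 were Pck1 at 0.84, at position 138 of all genes tested, and Pklr at 0.86, at position 167. Since the genes were picked for likeness to a gene that differed between the groups, their own differences are a description as well.

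**Figure D4:**
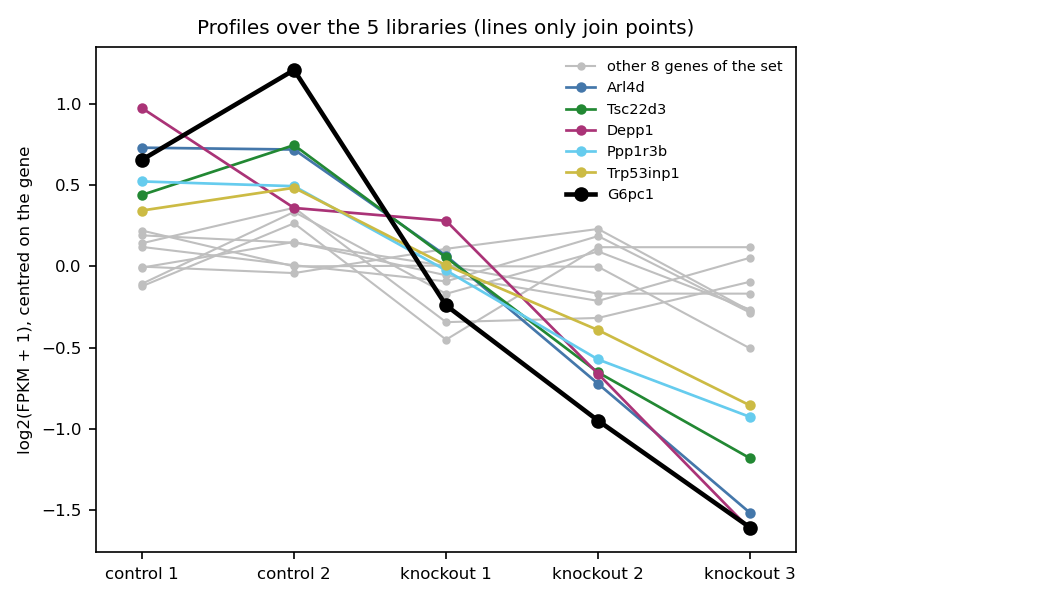
Level as log2(FPKM + 1), centred on each gene's mean of the group means (vertical axis), in the 5 libraries (horizontal axis, whose order has no meaning within a group) for G6pc1 (black), the 5 nearest genes (colours) and the other 8 genes of the set (grey). G6pc1 and the 5 coloured genes have their lowest value in knockout 3, and the grey profiles stay within a narrower range.

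The wider pathway was described with 8 lists holding 136 other genes, of which 135 had a row and 120 were tested. Of these, 65 had a higher and 55 a lower mean in knockouts, with a median log2 difference of 0.03 beside 0.06 over all genes, of which 64.2% had a higher mean in knockouts. Every knockout lay above both controls for 19 of the 120 and below both for 16, beside 18.9% and 6.38% of all genes. In either direction 0 passed the test across all genes. Unadjusted p was below 0.05 for 10 of the 120, beside 757 of all 10820. After median-of-ratios scaling 12 lay above and 25 below, beside 11.9% and 12.1% of all genes.

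Of the other gluconeogenic genes 9 were tested, with a median log2 difference of 0.02 and a range from -0.08 to 0.12, so none came near G6pc1 in size. Mdh1, the cytosolic malate dehydrogenase, was below both controls in every knockout (469 ± 26.5 and 443 ± 10.5 FPKM, SD, n = 2 and 3). Slc25a13, the aspartate-glutamate carrier, was above both (70.3 ± 0.72 and 73.3 ± 0.98 FPKM). Its log2 difference was 0.06, beside a median of 0.06 over all genes, and -0.0092 after median-of-ratios scaling. Over all genes 6.38% were lower and 18.9% higher without overlap. Got2, the mitochondrial aspartate aminotransferase, overlapped, with 246 ± 15.4 and 234 ± 16.9 FPKM.

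Of the other glycolytic genes 21 were tested, 11 higher and 10 lower, with a median of 0.0043. Over all genes 64.2% were higher, with a median of 0.06. The groups did not overlap for Aldoc and Pfkp, both higher, as were 18.9% of all genes in this way. Aldoc, an aldolase typical of brain, had 4.85 and 3.97 FPKM in controls, against 8.42, 7.71 and 8.75 FPKM in knockouts, a log2 difference of 0.78 (SE 0.13, limma adjusted p = 0.675), or 0.50 with a pseudocount of 5. Pfkp, the platelet form of phosphofructokinase, had 1.01 ± 0.30 and 1.53 ± 0.40 FPKM. The groups overlapped for the liver form Pfkl, at 12.9 ± 1.15 and 12.5 ± 0.65 FPKM, and for Pfkfb1, a liver enzyme of fructose-2,6-bisphosphate, at 33.1 ± 4.56 and 36.9 ± 1.53 FPKM. Pfkfb3, another gene of that enzyme family, had 17.6 and 9.43 FPKM in controls, against 10.3, 6.94 and 12.7 FPKM in knockouts, so its groups overlapped as well.

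Among 10 tested genes of pyruvate use 4 were higher and 6 lower, with a median of -0.07. Over all genes 64.2% were higher, with a median of 0.06. Groups did not overlap for 1 higher gene and 3 lower genes of the 10, beside 18.9% and 6.38% of all genes. Pdhx and Pdhb of the pyruvate dehydrogenase complex were lower without overlap (19.8 ± 0.49 and 15.5 ± 1.66 FPKM, and 117.8 ± 2.45 and 104 ± 12.1 FPKM). Mpc2, a subunit of the mitochondrial pyruvate carrier named after its values were seen, was also lower in every knockout. Its partner Mpc1 overlapped (200 ± 31.1 and 170 ± 15.9 FPKM). Pdp2, the phosphatase that activates the complex, was higher without overlap (5.60 ± 0.79 and 7.14 ± 1.27 FPKM). Pdk4, the kinase that inactivates it in fasting, lay below the limit of 1 FPKM and was not tested, with 1.10 and 0.99 FPKM in controls, against 0.55, 0.55 and 0.59 FPKM in knockouts.

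The list of sugar and lactate transport and entry had 8 of 12 tested genes lower, with a median of -0.22. Over all 10820 genes 3878 were lower, with a median of 0.06. Groups did not overlap for 3 higher and 3 lower genes of the 12, beside 18.9% and 6.38% of all genes. Tkfc, the triokinase of fructose breakdown, had 192 and 217 FPKM in controls, against 185, 170 and 166 FPKM in knockouts. Sord, sorbitol dehydrogenase, had 744 ± 39.0 and 642 ± 26.9 FPKM, also without overlap. The fructose transporter gene Slc2a5 (6.07 ± 1.33 and 8.04 ± 0.81 FPKM) and the monocarboxylate transporter gene Slc16a1 (6.46 ± 0.65 and 7.94 ± 0.60 FPKM) were higher in every knockout than in either control. Galk1 was also lower and Slc2a1 also higher without overlap, both named after their values were seen.

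Of 14 tested glycogen genes 9 were lower, 3 of them without overlap, and 0 were higher without overlap. Over all 10820 genes 3878 were lower, and 6.38% were lower and 18.9% higher without overlap. Of the 3, Ppp1r3b and Ppp1r3c encode subunits that target protein phosphatase 1 to glycogen. Ppp1r3b, given above, had a log2 difference of -1.02 (SE 0.25), and Ppp1r3c had 29.1 and 21.5 FPKM in controls, against 11.1, 20.6 and 8.05 FPKM in knockouts, a log2 difference of -0.97 (SE 0.35). The third was Pygl, the liver glycogen phosphorylase, named after its values were seen, with 224 and 228 FPKM in controls, against 214, 194 and 207 FPKM in knockouts. Ugp2 (213 ± 35.5 and 176 ± 17.9 FPKM) and Gbe1 (51.0 ± 7.94 and 39.9 ± 8.38 FPKM), enzymes of glycogen synthesis, overlapped. The smallest limma adjusted p of the list was 0.675.

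Regulators of gluconeogenesis other than Foxo1 and Ppargc1a were higher in 17 of 24 tested cases, with a median of 0.12, beside 0.06 over all genes, 64.2% of which were higher. Groups did not overlap for 7 higher and 2 lower genes of the 24, beside 18.9% and 6.38% of all genes. Among the 7 were Foxa2 (11.8 ± 0.93 and 20.4 ± 5.72 FPKM) and Foxa3 (27.4 ± 6.17 and 37.7 ± 2.32 FPKM), pioneer factors of liver. Tcf7l2, a Wnt pathway factor, had 2.64 ± 0.08 and 3.98 ± 0.71 FPKM. Ppargc1b, the relative of Ppargc1a, had 1.06 ± 0.07 and 1.74 ± 0.37 FPKM. The 2 lower genes without overlap, named after their values were seen, were Klf15, a fasting-responsive factor (91.7 and 107 FPKM in controls, 83.8, 84.7 and 50.3 in knockouts), and Nr0b2, the repressor SHP (63.5 and 42.8, then 38.2, 36.1 and 13.8). Hnf4a had 141 ± 20.5 and 146 ± 19.5 FPKM and overlapped.

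In insulin and glucagon signalling 15 of 20 tested genes were higher, with a median of 0.09, again beside 64.2% and 0.06 over all genes. In this list 4 of the 20 were higher and 1 lower without overlap, beside 18.9% and 6.38% of all genes. Among the 4 were Akt1 (21.3 ± 3.01 and 25.3 ± 1.18 FPKM), the protein kinase A subunit gene Prkar1a (33.8 ± 0.08 and 38.7 ± 0.78 FPKM) and Sesn1 (4.12 ± 0.21 and 5.51 ± 0.73 FPKM). The lower gene was Pik3ca (7.02 ± 0.18 and 5.95 ± 0.99 FPKM). The receptors overlapped, with Insr at 16.1 ± 0.60 and 18.4 ± 2.88 FPKM and Gcgr at 148 ± 9.39 and 156 ± 6.89 FPKM. Igfbp1, a gene that insulin represses through FOXO1, had 51.3 and 25.3 FPKM in controls, against 41.1, 20.0 and 7.29 FPKM in knockouts, so its groups overlapped. Irs2, another such gene, had 2.93 and 1.80 FPKM in controls, against 3.42, 1.98 and 2.66 FPKM in knockouts.

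Of 12 tested genes of the carbohydrate response 8 were lower, with a median of -0.10, beside 3878 of all 10820 genes and a median of 0.06. Groups did not overlap for 1 higher gene and 4 lower genes of the 12, beside 18.9% and 6.38% of all genes. Mlxipl, which encodes ChREBP, overlapped (131 ± 28.2 and 141 ± 8.15 FPKM). Its target Txnip had 46.7 and 33.9 FPKM in controls, against 33.4, 28.9 and 29.4 FPKM in knockouts, where the highest knockout lay just under control 2. Rgs16, a regulator of G protein signalling that glucose induces in liver, had 232 and 72.6 FPKM in controls, against 45.7, 29.1 and 18.3 FPKM in knockouts. Its controls differed from each other by more than control 2 did from knockout 1, and its log2 difference was -2.13 (SE 0.54, limma adjusted p = 0.689), or -1.29 without control 1. Srebf1 had 126 and 229 FPKM in controls, against 108, 103 and 139 FPKM in knockouts.

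**Figure D5:**
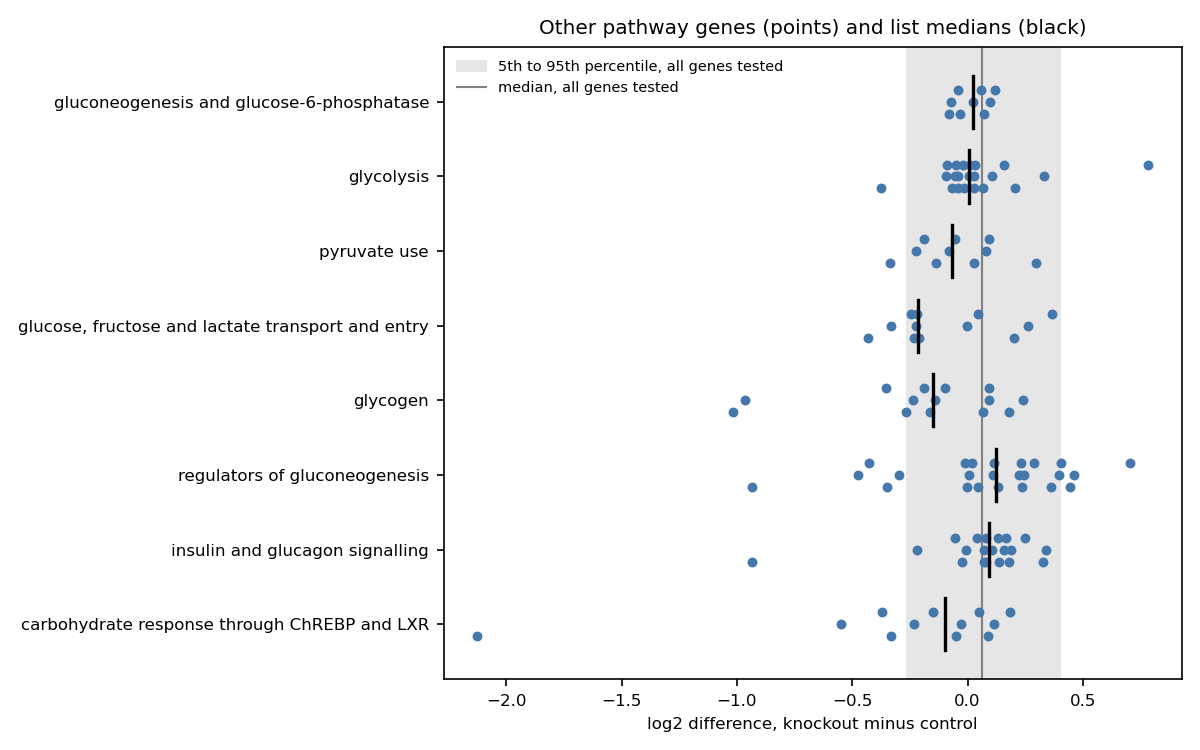
Log2 difference, knockout minus control (horizontal axis), of the tested pathway genes outside the set (1 point per gene) in 8 lists, with list medians as black bars. The grey band spans the 5th to 95th percentile of all genes tested, -0.26 to 0.40, and the grey line their median of 0.06. Rgs16 at -2.13 is the farthest point.

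Heg1, the targeted gene, had 0.48 and 0.35 FPKM in controls, against 0.45, 0.43 and 0.50 FPKM in knockouts, so its groups overlapped. All these values lay below the limit of 1 FPKM, and Heg1 was not tested. Levels this low in whole liver cannot show whether the deletion lowered its RNA. The 8 hepatocyte markers were present in every library, their summed FPKM between 86666 and 89663 in controls and between 73493 and 87299 in knockouts. The 7 erythroid markers had summed levels of 136 and 146 FPKM in controls, against 1329, 244 and 141 FPKM in knockouts 1 to 3, and the 6 cholangiocyte markers to 29.7 to 40.7 and 51.3 to 72.6 FPKM, with Krt7, Sox9 and Cftr under 1. Sums of 8 sinusoidal endothelium, 7 macrophage and 7 stellate cell markers overlapped between the groups. All 5 muscle markers, 6 of 7 pancreas and 4 of 5 adipocyte markers were at 0 in all libraries, the other pancreas marker being Cela1, and the 6 kidney and 8 lymphocyte markers had means under 1. In whole liver, fewer cells of a type and less RNA per cell cannot be told apart. The part of the hepatocyte, erythroid and cholangiocyte markers in the differences above was not tested. Erythroid sums and G6pc1 levels fell in the same order over knockouts 1 to 3. Without knockout 1 the log2 difference of G6pc1 was -2.21. Knockout 1 had the highest G6pc1 of the knockouts, so a larger difference had to follow and tells nothing of the erythroid content.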

How the data were processed

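RNA of 5 mouse liver libraries was sequenced as paired ends, per the labels' protocols. The authors deposited FPKM per gene symbol, rounded to 2 decimals, and per the submitters' processing notes HISAT2, StringTie, DESeq2 and the mm10 build were used, with versions and roles not stated. The 2 deposited tables hold identical values in all 33589 rows. Depth is unknown, since at most 38.2% of low FPKM in genes with a single exon lay within 0.1 of a whole number of reads. The 10820 rows with a mean of at least 1 FPKM were fitted with limma 3.58.1 (R 4.3.3) on log2(FPKM + 1), with genotype as the only term and a trended prior, two-sided, with Benjamini-Hochberg adjustment over all rows at 0.05. Fold changes on this scale understate changes of low genes. FPKM are relative to a library's total, so very abundant transcripts move all others. The counts of genes without overlap changed under median-of-ratios scaling, as the closing section gives.

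The 9 genes, the 8 pathway lists, the marker lists and the motifs were chosen with earlier results of these data known. Besides the 9, the text names 15 preset genes and up to 4 genes per pathway list with the smallest unadjusted p. It also names the 5 genes with an official symbol that were most like G6pc1 over the libraries. Any other gene is said to have been named after its values were seen. Positions and overlaps come from GENCODE M21 (GRCm38), where G6pc1 is listed as G6pc, and promoter sequences from RefSeq (GRCm38.p6). Some genes are not reported here and are in none of the pathway counts. All alternatives tried are in the closing section.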

Additional observations from a re-analysis of the deposited data

How the results depend on the processing

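G6pc1, Pck1, Pklr, Slc37a4, Gckr, Slc2a2 and Foxo1 were lower in knockouts under all 14 alternatives. The log2 difference ranged from -2.21 to -1.53 for G6pc1, -0.42 to -0.17 for Pck1, -0.61 to -0.39 for Pklr, -0.33 to -0.11 for Slc37a4, -0.45 to -0.0075 for Gckr, -0.22 to -0.064 for Slc2a2 and -0.25 to -0.016 for Foxo1. Fbp1 (-0.061 to 0.19) and Ppargc1a (-0.34 to 0.05) took both signs. No value of the 9 genes moved by more than the spread between libraries. Median-of-ratios scaling gave 1289 genes higher and 1312 lower without overlap (main values 2048 and 690), 5 of the 9 genes lower, and 12 higher and 25 lower other pathway genes. It turned Hnf4a to -0.0225 and Slc25a13 to -0.0092. Quantile normalization gave 1182 higher and 1245 lower and turned G6pc3 to -0.0214. No filter on low values gave 1051 lower, and a filter of 5 FPKM 1255 higher, where other numbers of genes were tested. The replicate block paired same-numbered libraries, by a number that the labels tie to no litter or batch. It called 4 genes higher and 1 lower, none of them named here. Knockout 3 has no same-numbered control, so the block drew nothing from it. Its differences are therefore those found without knockout 3, and these alternatives are not separate. The deviations of same-numbered libraries correlated at 0.23 and 0.20, and 2 pairs are too few to show pairing.

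Leaving out 1 library leaves fewer samples that can overlap. Genes without overlap then ranged from 2788 to 4042 higher and from 1114 to 2113 lower, the 9 genes from 4 to 6 lower and 0 to 1 higher, and other pathway genes from 22 to 36 lower and 25 to 33 higher. Genes called higher ranged from 0 to 1, the 1 being Hamp, named after its values were seen, without control 1. Differences that turned sign were those of Lyve1 (-0.511 to 0.104), G6pc3 (-0.0477 to 0.239), Pcx (-0.0594 to 0.184), Pfkl (-0.128 to 0.0413), Mlxipl (-0.106 to 0.332), Hnf4a (-0.102 to 0.193), Irs2 (-0.111 to 0.378) and Pfkfb3 (-0.791 to 0.0401), and the cause was not tested. A lone control is assumed to vary like the knockouts. With depth unknown, no counting error can be given for Ppargc1a, Pck2 or Pdk4, which lie near 1 FPKM, or for Heg1, which lies below it.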
